A study of Mus musculus with 4 samples.

Results

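The transcripts of 10 genes of the p53 pathway and of cell cycle inhibition (Trp53, Mdm2, Cdkn1a, Ccng1, Sesn2, Bax, Bbc3, Pmaip1, Cdkn2a and Cdkn2b) were measured in 4 lines of mouse embryonic fibroblasts (MEFs). The genes were chosen by name, as markers of culture senescence and immortalisation, and every array probe carrying one of these names was used. They came to 14 probes for 10 genes, out of 41174 probes and 27827 gene names on the array. All 14 were well above background on all 4 arrays, and none was saturated.

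The 4 lines came from E14 littermate embryos of 1 cross between Ip6k1 heterozygous parents. Ip6k1+/+ (the controls) and Ip6k1-/- (the knockouts) were represented by 2 lines each, every line from its own embryo, and each line was measured once on a 1-colour Agilent array, all 4 arrays lying on 1 slide. Ip6k1 encodes inositol hexakisphosphate kinase 1, which makes the inositol pyrophosphate 5-IP7. The cells were untreated, exponentially growing and had been passaged 2 times after thawing. All 4 lines, the Ip6k1+/+ controls included, had been immortalised with SV40 large T antigen, a viral protein that binds and inactivates p53 and the retinoblastoma (Rb) family. The levels described here are therefore those of cells in which both arms of this pathway were targeted by the immortalising protein. The level of the antigen itself was not analysed here. The embryo, immortalisation event and later culture of a line cannot be told apart from its genotype with 2 lines a genotype.

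p53, encoded by Trp53, is a transcription factor that is stabilised by DNA damage and other stress. It activates genes for cell cycle arrest and for apoptosis, and also Mdm2, whose product ubiquitinates p53 and closes a negative feedback loop. The Cdkn2a locus encodes both p16Ink4a, an inhibitor of the cyclin D kinases, and p19Arf, an inhibitor of Mdm2, while the adjacent Cdkn2b encodes p15Ink4b. These proteins accumulate as primary MEFs approach senescence, and cells in which p53 or Rb function is lost often carry high levels of the Cdkn2a products.

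RefSeq promoter windows (GRCm38.p6, 250 bases before to 50 bases after a start) were available for 9 of the genes, in 13 windows. Each window was searched on both strands for the p53 half-site, a 10-base motif known by its consensus, and for a p53 site of 2 half-sites separated by no more than 13 bases. At least 1 half-site lay in 5 of the 13 windows, 1 each of Trp53, Mdm2, Cdkn1a, Ccng1 and Bax, against 8.36% of all 32851 windows. A site of 2 half-sites lay in 1 of the Cdkn1a windows, with 12 bases between its half-sites, and in 0.0731% of all windows. Of the windows with a half-site, the 4 of genes that p53 is known to activate are shown, so that the search result decided which appear. The windows of Bbc3, which p53 also induces, and of Sesn2 had none and are not shown. Capitals mark the half-sites, which start 73 and 51 bases before the start in the Cdkn1a window shown. Those of Mdm2, Ccng1 and Bax start 186, 185 and 201 bases before the start. The other Cdkn1a window (chr17:29093519-29093818) held no half-site. Only exact matches to the consensus were marked, so that a half-site with a mismatch would stay in lower case. In the Cdkn1a window shown, the letters tgacatgttc directly follow the half-site that starts 51 bases before the start. They miss the consensus at 1 base and so were not marked or counted.
Cdkn1a, chr17:29090729-29091028, plus strand: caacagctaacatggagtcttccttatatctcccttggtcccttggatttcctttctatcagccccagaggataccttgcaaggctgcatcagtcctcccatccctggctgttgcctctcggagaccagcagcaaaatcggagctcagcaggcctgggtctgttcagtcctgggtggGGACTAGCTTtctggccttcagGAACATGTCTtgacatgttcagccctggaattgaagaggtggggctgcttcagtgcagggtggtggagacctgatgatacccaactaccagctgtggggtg
Mdm2, chr10:117710709-117711008, minus strand: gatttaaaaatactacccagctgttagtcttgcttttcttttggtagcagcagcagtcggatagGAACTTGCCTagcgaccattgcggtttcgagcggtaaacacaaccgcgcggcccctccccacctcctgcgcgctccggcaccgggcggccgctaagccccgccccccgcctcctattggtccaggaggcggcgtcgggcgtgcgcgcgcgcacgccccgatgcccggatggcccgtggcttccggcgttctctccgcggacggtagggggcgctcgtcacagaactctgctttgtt
Ccng1, chr11:40755237-40755536, minus strand: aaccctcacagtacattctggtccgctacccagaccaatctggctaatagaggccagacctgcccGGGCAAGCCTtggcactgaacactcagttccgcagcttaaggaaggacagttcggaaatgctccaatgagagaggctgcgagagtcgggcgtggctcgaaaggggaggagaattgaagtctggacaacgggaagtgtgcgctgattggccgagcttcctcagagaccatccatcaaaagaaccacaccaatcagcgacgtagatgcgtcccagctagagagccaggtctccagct
Bax, chr7:45466849-45467148, minus strand: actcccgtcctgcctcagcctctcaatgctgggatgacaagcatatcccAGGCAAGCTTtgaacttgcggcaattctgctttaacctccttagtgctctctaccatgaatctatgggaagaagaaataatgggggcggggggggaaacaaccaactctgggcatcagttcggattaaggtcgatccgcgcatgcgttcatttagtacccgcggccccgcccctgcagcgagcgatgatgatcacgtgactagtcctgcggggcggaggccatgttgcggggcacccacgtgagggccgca
No half-site was matched in the windows of Bbc3, Cdkn2a, Cdkn2b and Sesn2, which says only that no such letters lie in these windows. The E2F motif searched (TTTCGCGC or TTTGGCGC, held by 0.813% of all windows) and TATAAA (13.6%) were also scored. The E2F motif was in none of the member windows, and TATAAA was only in that of Trp53.

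Levels are given on the log2 scale relative to the 75th percentile of each array, so that 0 is that percentile and a difference of 1 is 2-fold. They are compared between lines for the same probe and not between probes, and are given in the order replicate 1 and replicate 2, controls first. Genotypes were compared with limma over the 21572 probes whose spots stood well above background in both lines of 1 genotype or of both, with Benjamini-Hochberg adjustment over all of them. Of these, 3 probes (0.0139%) passed an adjusted p of 0.05 and all 3 were lower in Ip6k1-/- MEFs. Of the 3, 2 were probes of Ip6k1 itself, so that the targeted gene matched the labels, and the third is listed under the transcript cluster name TC1686295 with no gene. The Ip6k1 probe A_51_P213766 had levels of 0.35 and 0.39 in the Ip6k1+/+ lines and on neither knockout array did it stand well above background (at least 34.0-fold higher in Ip6k1+/+, limma adjusted p = 0.0355), and A_52_P413035, at 0.22 and 0.41, likewise (at least 32.7-fold higher, adjusted p = 0.0355). The Ip6k1 probe A_51_P103718 was detected in every line, at 2.46 and 2.61 in the controls against -1.98 and -1.23 in the knockouts (difference -4.13 ± 0.33, SE, n = 2 lines each, limma adjusted p = 0.367). Fibroblast markers were well above background for 12 to 14 of 14 genes in each line. Their summed signal was 636 to 681 times the array's 75th percentile in the controls and 596 to 634.5 times in the knockouts, sums that rest mostly on 5 genes saturated on 3 or 4 arrays. Of the other marker lists, 2 of 8 endothelial, 2 to 4 of 9 blood, 2 to 5 of 7 epithelial, 1 to 2 of 8 skeletal muscle and 3 to 6 of 8 neural genes were well above background in a line.

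No member passed the test between the genotypes. None of the 14 probes was called by limma (lowest adjusted p = 0.993), and none reached the 2-fold difference that the study used, against 5.95% of all probes tested (1.84% that were 2-fold higher and 4.11% that were 2-fold lower in Ip6k1-/-). At an unadjusted p under 0.05, 2 of the 14 passed, Bbc3 and Cdkn2b, where 3.34% of all probes did. The methods' t-test gave 0 member probes at its unadjusted threshold, where 3.94% of all probes passed. The genotypes did not overlap for 3 of the 14 probes, the knockouts being above for 1 and below for 2, against 31.5% of all probes (18.8% above and 12.6% below). With 1 probe a gene, the median difference over the 10 genes was 0.06, against 0.04 over 14334 genes, and 6 of the 10 were above 0, as were 55% of all genes. These are levels of RNA in a whole culture, where fewer expressing cells and less RNA per cell cannot be told apart. An exact permutation test of 2 lines against 2 could not give a two-sided p below 0.333, and the limma standard errors of the member probes ran from 0.20 to 0.73.

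**Figure D1:**
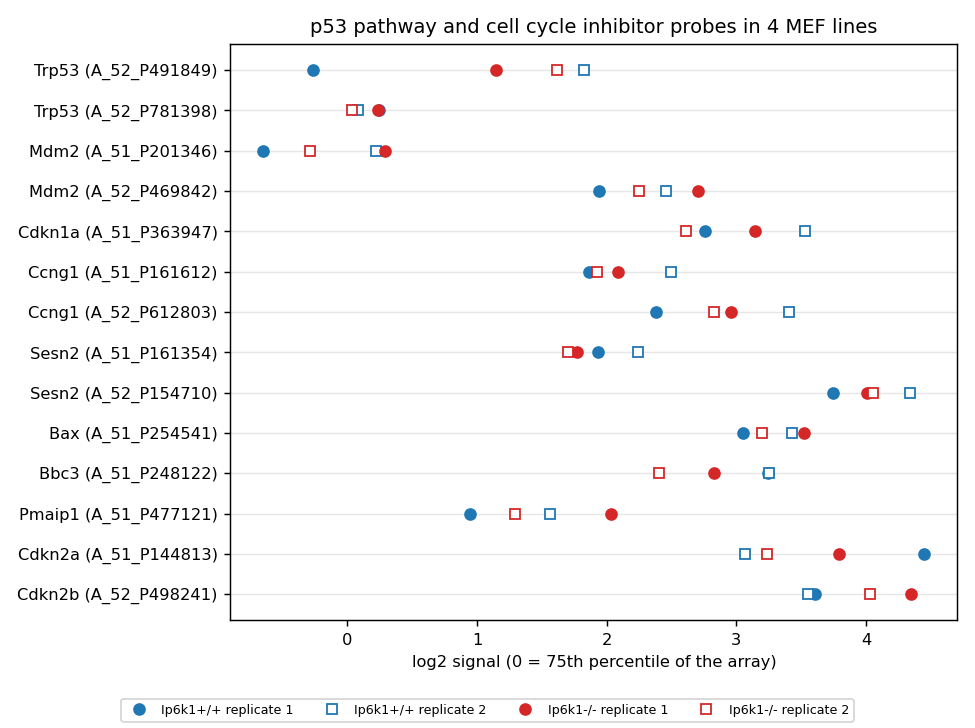
Log2 signal of each of the 14 member probes (rows) in the 4 MEF lines, relative to the 75th percentile of the array. Blue symbols are Ip6k1+/+ and red are Ip6k1-/-, filled circles are replicate 1 and open squares replicate 2. The genotypes separate without overlap only for Cdkn2b (both Ip6k1-/- lines above), Bbc3 and the Sesn2 probe A_51_P161354 (both below), and the largest spread is that of Trp53 A_52_P491849, from -0.26 to 1.83.

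Trp53 itself was read by a pair of probes that gave different pictures. The probe A_52_P491849 (mm9 chr11:69403134-69403193, plus strand) had levels of -0.26 and 1.83 in Ip6k1+/+ replicates 1 and 2, and of 1.15 and 1.61 in Ip6k1-/- replicates 1 and 2. Ip6k1+/+ replicate 1 stood apart as the low line, 4.26-fold below the other Ip6k1+/+ line, and the Ip6k1-/- lines fell between the controls. The SD between the Ip6k1+/+ lines was 1.48, at percentile 96.8 of that SD over all probes tested. The difference between genotypes was 0.60 ± 0.73 (SE, n = 2 lines each), and it turned to -0.45 without Ip6k1+/+ replicate 1. The probe A_52_P781398 (mm9 chr11:69393959-69394017, plus strand) lies 9175 bases upstream. Its levels were 0.24 and 0.08 in the controls against 0.23 and 0.03 in the knockouts. On this probe no line stood apart, and the range over the 4 lines was 0.21, against 2.09 on the downstream probe. Why the probes differ was not tested.

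The low value of the downstream Trp53 probe was not the reading of a single spot. This probe and those of Cdkn1a, Cdkn2a, Bax and the upstream Mdm2 probe were each printed at 10 places on every array. The spots of a probe on 1 array had an SD between 0.02 and 0.07 (median 0.03), with 8 to 10 spots left after outlier-flagged ones were removed. On the downstream Trp53 probe the highest spot of Ip6k1+/+ replicate 1 was at -0.20 and the lowest spot of any other line at 1.09. For these 5 probes the gap between lines of 1 genotype was between 0.32 and 2.09, several times that SD. The SD between spots covers 1 RNA preparation a line and says nothing of a second culture of that line.

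**Figure D2:**
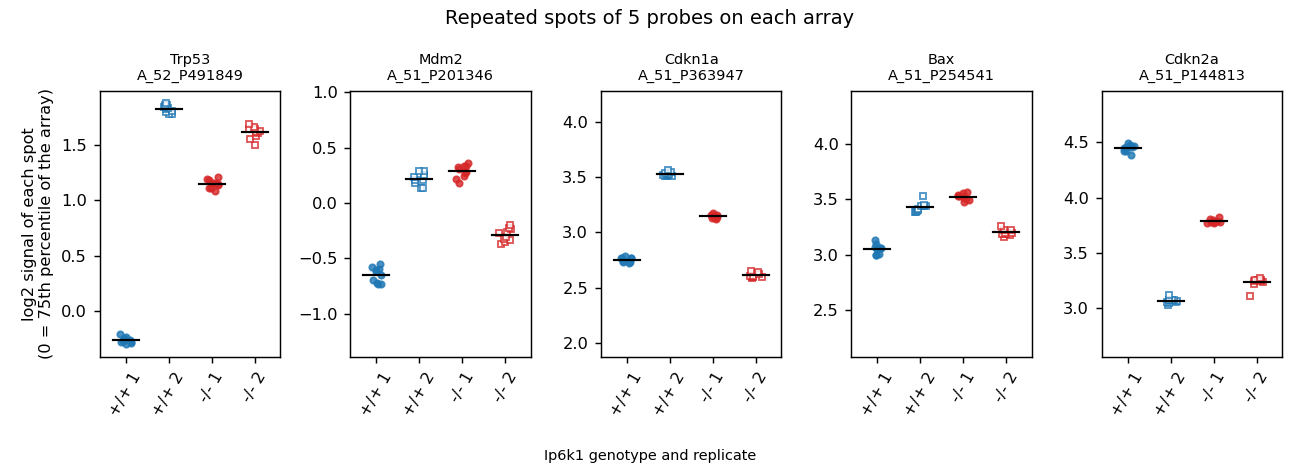
Log2 signal of every repeated spot of 5 probes on each array, relative to the 75th percentile of the array. Points are spots, black bars are means, blue is Ip6k1+/+ and red Ip6k1-/-, and each panel spans 2.4 log2 units. Spots of 1 array form tight groups, whereas lines of the same genotype sit apart. The gap between the Ip6k1+/+ lines is largest for Trp53 (2.09) and Cdkn2a (1.38), and those between the Ip6k1-/- lines run from 0.32 (Bax) to 0.57 (Mdm2).

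Mdm2, the ubiquitin ligase and p53 target, had its lowest level in Ip6k1+/+ replicate 1 on both of its probes. On A_51_P201346 (mm9 chr10:117129725-117129784, minus strand) the levels were -0.65 and 0.22 in the controls against 0.29 and -0.29 in the knockouts. On A_52_P469842 (mm9 chr10:117126278-117126337), which lies 3447 bases downstream, they were 1.94 and 2.46, then 2.70 and 2.25. The order of the 4 lines was the same on both probes, with Ip6k1-/- replicate 1 at the top, and the genotypes overlapped. The differences were 0.21 ± 0.41 and 0.28 ± 0.29 (SE, n = 2 lines each).

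Among the arrest genes, Cdkn1a encodes p21, which inhibits cyclin-dependent kinases. The 2 half-sites shown above lie in 1 of its promoter windows. Its probe A_51_P363947 (mm9 chr17:29237377-29237436, plus strand) had levels of 2.75 and 3.53 in the controls against 3.15 and 2.61 in the knockouts. The highest and the second lowest line were both Ip6k1+/+, and the difference was -0.26 ± 0.35 (SE, n = 2 lines each). The 95% interval of the difference ran from -1.19 to 0.66, so that a 2-fold lower level in Ip6k1-/- lay within it and a 2-fold higher level did not.

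Ccng1 encodes cyclin G1, a p53 target that recruits a phosphatase to Mdm2. The probe A_52_P612803 (mm9 chr11:40562427-40562486) gave 2.38 and 3.40 in the controls against 2.96 and 2.83 in the knockouts. The probe A_51_P161612, 1986 bases upstream, gave 1.86 and 2.49, then 2.09 and 1.92. Ip6k1+/+ replicate 1 was lowest and Ip6k1+/+ replicate 2 highest on both, and the Ip6k1-/- lines lay between them. The differences were 0.00 ± 0.38 and -0.17 ± 0.28 (SE, n = 2 lines each).

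Sesn2 encodes sestrin 2, a stress protein that restrains mTORC1. The probe A_52_P154710 (mm9 chr4:132047974-132048033) gave 3.74 and 4.34 in the controls against 4.01 and 4.05 in the knockouts, a difference of -0.01 ± 0.26. The probe A_51_P161354, 884 bases upstream, gave 1.93 and 2.24, then 1.77 and 1.70, so that both Ip6k1-/- lines lay below both controls. Its difference was -0.35 ± 0.22 (SE, n = 2 lines each, limma unadjusted p = 0.17, adjusted p = 0.993). The pair of probes thus disagreed on whether the genotypes overlapped.

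The apoptosis genes did not share a direction. Bbc3 encodes Puma, a BH3-only protein that p53 induces, and had the most negative difference among the members. Its probe A_51_P248122 (mm9 chr7:16903403-16903462, plus strand) had levels of 3.24 and 3.25 in the controls against 2.83 and 2.40 in the knockouts. The controls lay almost on each other and both Ip6k1-/- lines were below them. The difference was -0.63 ± 0.23 (SE, n = 2 lines each), a ratio of 0.645 with a 95% interval from 0.429 to 0.972 (limma unadjusted p = 0.0405, adjusted p = 0.993). The interval is that of a single probe and was not widened for the number of probes tested. With each line left out in turn the difference ran from -0.85 to -0.42.

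Bax encodes the pore-forming executioner of the mitochondrial pathway. Its probe A_51_P254541 (mm9 chr7:52721469-52721624, minus strand) gave 3.05 and 3.43 in the controls against 3.52 and 3.20 in the knockouts, a difference of 0.12 ± 0.24. Pmaip1 encodes Noxa, another BH3-only protein. Its probe A_51_P477121 (mm9 chr18:66625088-66625147, plus strand) gave 0.94 and 1.56, then 2.03 and 1.29, a difference of 0.41 ± 0.37 (SE, n = 2 lines each). For both genes Ip6k1+/+ replicate 1 was the lowest and Ip6k1-/- replicate 1 the highest line, and the genotypes overlapped.

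The Ink4 genes went different ways between the lines, although their probes are neighbours on mm9 chromosome 4. Cdkn2b, which encodes p15Ink4b, had the most positive difference among the members. Its probe A_52_P498241 (mm9 chr4:88952437-88952496, minus strand) had levels of 3.61 and 3.55 in the controls against 4.35 and 4.03 in the knockouts. Both Ip6k1-/- lines lay above both controls, which differed by 0.05 from each other. The difference was 0.61 ± 0.20 (SE, n = 2 lines each), a ratio of 1.53 with a 95% interval for this single probe from 1.06 to 2.19 (limma unadjusted p = 0.03, adjusted p = 0.993). With each line left out in turn it ran from 0.45 to 0.77.

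The Cdkn2a probe A_51_P144813 (mm9 chr4:88920545-88920604, minus strand) gave 4.45 and 3.07 in the controls against 3.79 and 3.24 in the knockouts. Here Ip6k1+/+ replicate 1 was the highest line and Ip6k1+/+ replicate 2 the lowest, 2.61-fold apart, with both Ip6k1-/- lines between them. The difference was -0.25 ± 0.51 (SE, n = 2 lines each), and it was 0.45 without Ip6k1+/+ replicate 1. Cdkn2a was well above background on every array, so that its transcript was detected in all 4 lines. It has a single probe on the array, and whether that probe reads p16Ink4a, p19Arf or both was not tested.

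The genes next to the locus were read too. Mtap, a gene of methylthioadenosine salvage that is often lost with the locus in tumours, had levels of 1.19 and 1.27 in the controls against 1.51 and 2.09 in the knockouts (difference 0.57 ± 0.27, SE, n = 2 lines each). It was well above background in every line. Dmrta1 did not stand well above background in any of the lines. Of the Elavl2 probes, A_52_P664899 was well above background in Ip6k1-/- replicate 2 alone, at -1.82, and the other probe in no line. The number of copies of the locus was not measured.

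**Figure D3:**
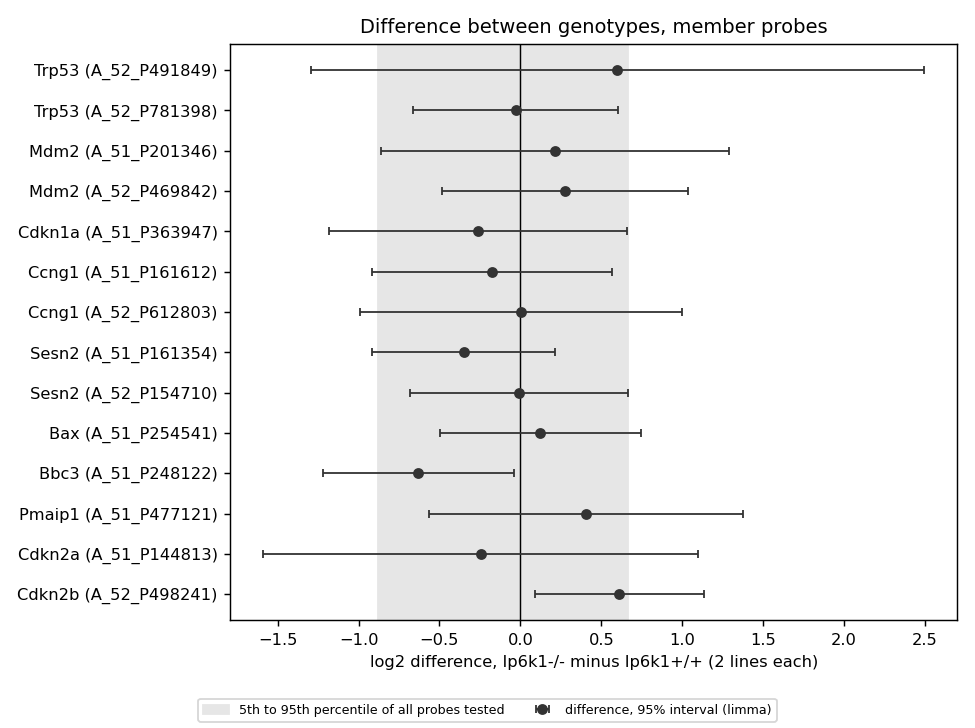
Log2 difference, Ip6k1-/- minus Ip6k1+/+, for each member probe, with its 95% interval from limma (n = 2 lines each, not adjusted for multiple tests). The grey band spans the 5th to the 95th percentile of the difference over all probes tested, -0.88 to 0.67. All 14 estimates lie inside the band, and only the intervals of Bbc3 and Cdkn2b leave out 0.

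The gap between the Ip6k1+/+ lines was larger than the difference between the genotypes for 11 of the 14 member probes, against 65.3% of all probes tested. For the Ip6k1-/- lines this held for 9 of the 14, against 60.6%. Ip6k1+/+ replicate 1 was the lowest line for 8 of the 14 probes, against 32.3% of all probes tested, and Ip6k1+/+ replicate 2 the highest for 7, against 20.2%. Ip6k1-/- replicate 1 was the lowest line for none of the 14 probes (19.7% of all probes) and Ip6k1-/- replicate 2 the highest for none (34.4%). The probes for which Ip6k1+/+ replicate 1 was lowest were those of Mdm2, Ccng1, Bax and Pmaip1, with 1 each of Trp53 and Sesn2. Cdkn2a was highest in that line, and whether these patterns are linked was not tested. With 1 probe a gene, Ip6k1+/+ replicate 1 was lowest for 60% of the members and 29.2% of all genes. It was lowest for 29.4% of the other p53 targets and 50% of the p53 regulators described below. Ip6k1+/+ replicate 2 was highest for 50% of the members, 47.1% of the other targets, 36.4% of the regulators and 19% of all genes. Probes of 1 gene are not independent, and these counts describe 4 lines.

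How many other genes had a pattern close to that of a member varied widely between the members. Likeness over only 4 lines does not show that genes are linked. Likeness was measured as the largest gap between 2 probes at any of the 4 lines after each was centred on its own mean, over the 19956 probes detected well above background in every line. The closest to the downstream Trp53 probe was Metrn (gap 0.07), after a transcript known only by an accession. For Cdkn1a they were Ctnnd1 and Cpt1a (0.05 each), for Cdkn2a Sept11 (0.05), for Cdkn2b Tgds (0.05) and for Bbc3 Parp3 (0.03). Between 8 genes for Trp53 and 1054 for Sesn2 lay within 0.2 of a member.

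Further p53 targets were described by a list of 36 genes on the array, of which 34 were tested. None was called by limma, 2 passed an unadjusted p under 0.05 (3.68% of all genes), 3 were at least 2-fold lower in Ip6k1-/- and none 2-fold higher, where 4.64% of all genes were 2-fold lower and 1.82% higher with 1 probe a gene. The 2 that passed an unadjusted p were Gdf15 and Ddit4 (difference -0.80 ± 0.24). The 3 that were 2-fold lower were Gdf15, Btg2 and Fas, and the genotypes overlapped for Fas. The difference was above 0 for 13 of the 34 and the median was -0.20. The median was 0.01 without Ip6k1+/+ replicate 2, and 2 genes were 2-fold higher without Ip6k1+/+ replicate 1 or without Ip6k1-/- replicate 2. Gdf15, a stress-induced secreted cytokine, had levels of 1.91 and -0.05 in the controls against -0.76 and -1.61 in the knockouts, a difference of -2.12 ± 0.73. Btg2, an antiproliferative gene, gave 3.07 and 2.35, then 2.10 and 0.87, a difference of -1.23 ± 0.50 on its brightest probe and -0.89 on each of the others. For both genes the Ip6k1-/- lines lay below the controls, and both had a limma adjusted p of 0.993.

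Regulators and relatives of p53 had differences between genotype means close to 0. Of 23 on the array 22 were tested, and none was called by limma (0 at an unadjusted p under 0.05) or 2-fold apart. Of the 22, 12 were above 0 and the differences ran from -0.28 to 0.31 (median 0.03). With a line left out, their median was -0.06 to 0.19 and 10 to 17 were above 0. Without Ip6k1-/- replicate 1, 1 gene was 2-fold higher, and without Ip6k1-/- replicate 2, 1 was 2-fold lower. The Bcl2 family outside the members had 10 of 13 genes tested, none called by limma (0 at an unadjusted p under 0.05) or 2-fold apart, 5 above 0 and a median of 0.02. With a line left out, the median was 0.06 to 0.15, 6 or 7 were above 0 and 1 gene was 2-fold apart in each case.

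Most of the other cyclin-dependent kinase inhibitors differed between lines of 1 genotype by more than between genotypes, and none of the 5 was called by limma (0 at an unadjusted p under 0.05) or 2-fold apart. Cdkn1c or Cdkn3 was, however, 2-fold apart whenever a line was left out (1 gene lower in each case, and 1 higher without Ip6k1+/+ replicate 2 or without Ip6k1-/- replicate 1). Cdkn1c, which encodes p57 and is imprinted, gave -0.27 and 3.09 in the controls against -1.21 and 4.10 in the knockouts. Its high lines were replicate 2 of each genotype, and the difference was 0.04 ± 2.05 (SE, n = 2 lines each). Cdkn2c, encoding p18Ink4c, gave 3.68 and 2.44, then 3.07 and 2.31 on its brightest probe (difference -0.37 ± 0.51), and its second probe differed by -0.38.

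Cdkn2d, encoding p19Ink4d, gave 2.90 and 1.79 in the controls against 2.46 and 2.12 in the knockouts (difference -0.06 ± 0.42). Cdkn3, a phosphatase that acts on cyclin-dependent kinases, gave 3.16 and 1.75, then 2.46 and 1.00 (difference -0.72 ± 0.69) on its brightest probe, and a second tested probe differed by -0.26. Cdkn1b, encoding p27, gave -0.97 and -0.63, then -0.97 and -1.36 (difference -0.36 ± 0.31), and its second tested probe differed by -0.60. Cdkn2c, Cdkn2d and Cdkn3 were highest in Ip6k1+/+ replicate 1, as were Cdkn2a and 27.1% of all probes tested. Cdkn1c and the brightest probe of Cdkn1b were highest in other lines, as were Cdkn1a and Cdkn2b.

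The targets of these inhibitors were described by G1 cyclins and kinases, the Rb family and E2F genes. All 21 on the array were tested and none was called by limma (0 at an unadjusted p under 0.05). Ccnd1, the cyclin D1 gene, was the only one at least 2-fold higher, and its genotypes overlapped. The difference was above 0 for 14 and the median was 0.17. The median was 0.00 without Ip6k1-/- replicate 2, where no gene was 2-fold higher, and without Ip6k1-/- replicate 1, 3 were. Proliferation genes of S phase and mitosis gave 19 of 20 above 0, against 55% of all genes. Their median was 0.17 and their range from -0.09 to 0.60. None was called by limma (0 at an unadjusted p under 0.05) or 2-fold apart. Without Ip6k1-/- replicate 2, 13 of the 20 were above 0.

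Regulators of the Cdkn2a and Cdkn2b locus, with Polycomb subunits, T-box repressors and Ets factors among them, gave 18 genes tested, none called by limma (1 at an unadjusted p under 0.05, Jmjd3, with a difference of -0.87), 8 above 0 and a median of -0.06. At least 2-fold lower in Ip6k1-/- were 2. Tbx3, a repressor of the locus, on the 1 of its 2 probes that was detected, gave 0.81 and 1.07 in the controls against -3.95 and -0.02 in the knockouts (difference -2.93 ± 1.30). Id1, an inhibitor of Ets and helix-loop-helix activators, gave 3.88 and 4.44, then 3.62 and 2.54 (difference -1.08 ± 0.43). Both Ip6k1-/- lines lay below the controls for each gene, and the limma adjusted p was 0.993 for both. The count was 1 without Ip6k1+/+ replicate 2 or without either Ip6k1-/- line.

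Genes of the senescence-associated secretory response and senescence-associated nuclear genes had the most negative median of the lists around the pathway, -0.67. This median pools both kinds of gene. Of 26 on the array 21 were tested and none was called by limma. At an unadjusted p under 0.05, 5 were lower and 1 higher (3.68% of all genes passed). By their measured means 8 were at least 2-fold lower and none 2-fold higher in Ip6k1-/-, and 7 were above 0. Among the 8, the genotypes overlapped for Cxcl1, Cxcl5 and Tnfrsf11b. Those above 0 included the nuclear genes Lmnb1, Hmgb1, Hmga1 and Hmga2. Among all genes, 4.64% were 2-fold lower, 1.82% were 2-fold higher and 55% were above 0. The median was -0.26 without Ip6k1-/- replicate 2, and between 6 and 9 genes were 2-fold lower with 1 line left out, while 3 were 2-fold higher without Ip6k1+/+ replicate 2 and 2 without either Ip6k1-/- line. The 1 that was higher at an unadjusted p was Hmga2, a chromatin protein gene, at 3.34 and 3.68 in the controls against 4.44 and 4.54 in the knockouts (difference 0.98 ± 0.21). Il6, encoding the cytokine interleukin 6, had levels of -1.46 and -2.33 in the Ip6k1+/+ lines and on neither knockout array did it stand well above background. It was at least 7.05-fold higher in Ip6k1+/+ (limma adjusted p = 0.716). Igfbp3, an insulin-like growth factor binding protein, gave -0.35 and -2.38, then -3.98 and -6.37, the last not well above background, on the 1 of its 3 probes that was tested.

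Ccl7, a chemokine for monocytes, gave 4.37 and 3.25 in the controls against 2.01 and 2.51 in the knockouts, a difference of -1.55 ± 0.44 (SE, n = 2 lines each). Of the 4 Hgf probes, A_52_P421815 was well above background in both controls and in no knockout, another in 1 control alone and the others in no line. The bound on its fold was under 1, so that Hgf, although among the 8, is not shown to be 2-fold lower. Of the 13 fibroblast markers tested, 5 were saturated on 3 or 4 arrays. None was called by limma, and 3 passed an unadjusted p under 0.05 (3.68% of all genes). These 3 were Dcn (difference -2.40), Col3a1 (-1.25) and Pdgfrb (-1.20), with both Ip6k1-/- lines below both controls. In Ip6k1-/-, 4 of the 13 were also at least 2-fold lower (4.64% of all genes) and 1 was 2-fold higher (1.82%), with a median of -0.29. That median was -0.08 without Ip6k1+/+ replicate 1, -0.17 without Ip6k1+/+ replicate 2, -0.03 without Ip6k1-/- replicate 1 and 0.07 without Ip6k1-/- replicate 2, and the part of these markers in the values above was not tested.

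**Figure D4:**
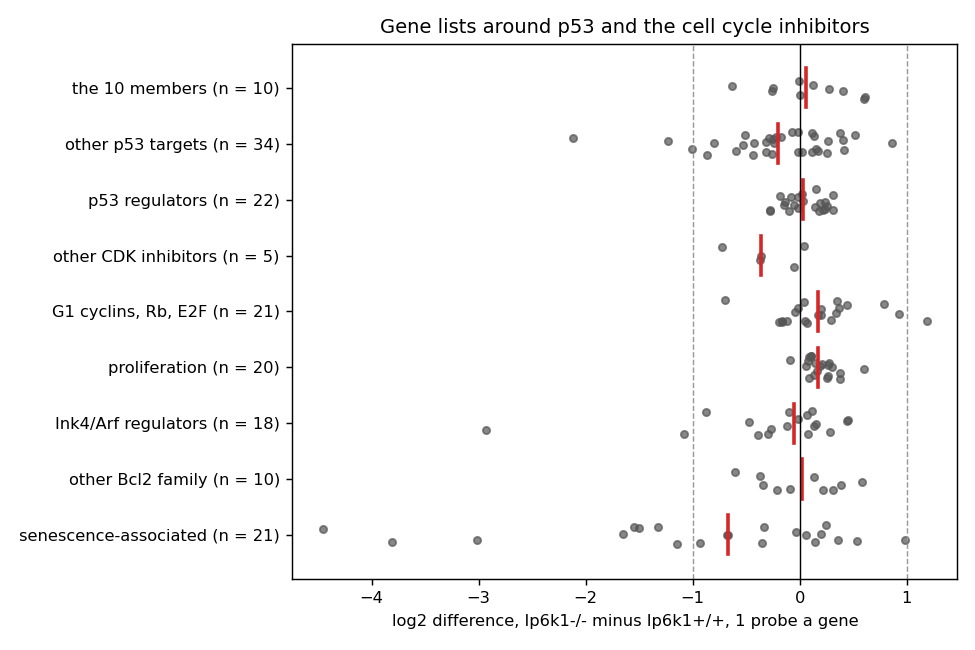
Log2 difference, Ip6k1-/- minus Ip6k1+/+ (n = 2 lines each), for every tested gene of 9 lists, 1 probe a gene. Grey points are genes with a vertical scatter for visibility, red bars are list medians and dashed lines mark 2-fold. The medians lie between -0.67 (senescence-associated) and 0.17 (proliferation and the G1 group), and the 10 members all lie inside the dashed lines.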

How the data were processed

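Expression was measured in 4 MEF lines with 1-colour Agilent whole mouse genome arrays, 1 per line. Per the file headers, the authors' scanner output was made with Feature Extraction 10.5.1.1, which gave each spot an intensity after subtraction of background and spatial detrending, and probe coordinates on mm9. The deposited value table holds log2 values that the authors had shifted by the 75th percentile in GeneSpring GX. It differed from the values computed here by a median of 0.0025 after a constant per array.

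From the deposited intensities, log2 of the processed signal minus the 75th percentile of each array was computed over spots that are not controls. That percentile ran from 610 to 747 intensity units, and 52% to 55.5% of probes were well above background on an array. The number of arrays limits the precision. Spots flagged as outliers (96 to 133 an array) were left out and saturated spots kept. Spots of a probe were averaged, and a probe counted as well above background where most of its spots did. Probes entered the test when they stood well above background in both lines of 1 genotype or of both. limma 3.58.1 (R 4.3.3) was fitted with a variance trend to all 4 arrays, with Benjamini-Hochberg adjustment over 21572 probes. Where a gene not above background in one genotype is given as "at least N-fold", the dim group was set to the lowest well-above-background signal of its arrays, or to its own value where higher. In lists, the probe with the highest mean stands for a gene.

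Each line is a separate embryo, so p-values measure the spread between 4 embryo-derived lines of 1 litter. The labels give no sign that equal replicate numbers pair the lines. Named by rule were the members on every probe, and Ip6k1, the other cyclin-dependent kinase inhibitors and the neighbours of Cdkn2a. From each list, genes called by limma, or 2-fold apart without overlap (up to 4 in each direction), were named. Markers of cell types other than fibroblasts were only counted, although Kdr (higher in Ip6k1-/-) and Sox2 (lower) met this rule. Ccnd1, Jmjd3, Hmga2, Ddit4, Fas and TC1686295 were named after their values were seen, to identify small counts. So were Cxcl1, Cxcl5, Tnfrsf11b, Lmnb1, Hmgb1 and Hmga1, to describe the senescence-associated list. The members and lists were chosen with earlier results of these data known. Alternatives changed the background correction, normalization, filter, outlier handling, replicate block, test and the lines included. Promoter windows are RefSeq's on GRCm38.p6 and were not joined to mm9 positions.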

Additional observations from a re-analysis of the deposited data

How the results depend on the processing

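No member probe was called by limma under any alternative (lowest adjusted p = 0.456). Of 168 recomputed member differences, 148 kept their direction and 20, on 9 probes, reversed. Bbc3, Cdkn2b, Pmaip1, Mdm2 A_52_P469842 and Sesn2 A_51_P161354 reversed under none, but with a line left out Pmaip1 ran from 0.04 to 0.78, Mdm2 A_52_P469842 from 0.02 to 0.53 and Sesn2 A_51_P161354 from -0.51 to -0.20. Under quantile normalization Ccng1 A_52_P612803 moved from 0.00 to -0.0348, and with the deposited log2 values to -0.01. Median normalization, which moved the median of all probes from 0.05 to 0.10, gave 0.0366 for Sesn2 A_52_P154710 and 0.0169 for Trp53 A_52_P781398. With each line left out in turn, the differences ran from -0.22 to 0.65 for Mdm2 A_51_P201346, from -0.65 to 0.12 for Cdkn1a, from -0.0655 to 0.31 for Bax and from -0.45 to 1.64 for Trp53 A_52_P491849. They ran from -0.94 to 0.45 for Cdkn2a, from -0.51 to 0.52 for Ccng1 A_52_P612803, from -0.49 to 0.14 for Ccng1 A_51_P161612, from -0.31 to 0.29 for Sesn2 A_52_P154710 and from -0.13 to 0.0717 for Trp53 A_52_P781398. The median of the 10 genes ran from -0.19 to 0.41, the highest without Ip6k1+/+ replicate 2, and 5 to 13 member probes lay outside the other genotype. With 1 line on a side this is easier to meet, as 57.7% to 72.8% of all probes did.

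Over all probes, the 3 limma calls became 0 with normexp or quantile normalization, 1 without a filter on dim probes and 1 with probes well above background on all arrays. There were 0 with each line left out, and the methods' t-test gave 849 probes unadjusted and 0 after Benjamini-Hochberg. The 1283 probes past 2-fold became 476 with normexp, 2887 without a filter, 724 with the stricter filter and 1501 to 2517 with a line left out. The share of these that were higher in Ip6k1-/- was 30.9%, 22.5% with normexp, 44.7% without a filter, and 37.5% to 42.7% with a line left out. With the replicate number as a block, 3 probes and no member were called, and 1765 probes passed an unadjusted p under 0.05, against 721 without the block. The difference of replicates 1 and 2 correlated between genotypes over probes (r = 0.479), with only 2 pairs. The causes were not tested. A fit without a line assumes that the lone line of its genotype varies like the others.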
